A study of Mus musculus with 4 samples.

Results

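The 6 conventional actins of the mouse genome, Acta1, Actc1, Acta2, Actg2, Actb and Actg1, were taken by name from a table of gene levels in cultured satellite cells, which are muscle stem cells. Each name had 1 row, so 6 of 54446 rows were described, and all 6 were among the 10900 genes abundant enough to test. The cells were taken from C57BL/6 hindlimb and were kept in F10 medium with 10% HS and P/S. One group of 2 samples had received siRNA against the long non-coding RNA LncMyoD and the other group of 2 had received control siRNA, with harvest at 48 h. Samples were grouped by title, description and treatment tag, since the treatment protocol attached to the controls also names LncMyoD. No source used here says whether the 2 samples of a group were separate cultures or animals, so each p-value reflects the spread of these samples alone and that spread may be technical. The level of LncMyoD itself was not analysed here. Pax7, the factor that defines satellite cells, was at 0.625 to 1.40 FPKM in these libraries (FPKM is explained with the levels), while Myog, a factor of differentiating myoblasts, was at 2793 to 4196 FPKM.

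Actin is the protein of thin filaments in muscle and of the cortical and stress-fibre filaments in every other cell. Its isoforms differ mainly at the N-terminus, which contacts myosin and other partners, and each gene has its own tissue pattern. Acta1 is the skeletal muscle alpha-actin of adult fibres, Actc1 the cardiac alpha-actin that is also made in embryonic and regenerating skeletal muscle, Acta2 the alpha-actin of vascular smooth muscle and myofibroblasts, and Actg2 the gamma-actin of enteric smooth muscle. Actb and Actg1 are the cytoplasmic beta- and gamma-actins. Monomeric actin also holds back the cofactors MRTF-A and MRTF-B of SRF, a transcription factor that binds the CArG box and drives actin genes.

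The 6 coding sequences are much alike, which matters for assigning reads to 1 gene. The start of each coding sequence, from the initiator codon, is given below as the stretch aligned with the first 75 bases of Acta1 (GENCODE M21, GRCm38), which encodes the N-terminus where the isoforms differ. Capitals mark bases that differ from the aligned base of Acta1.
Acta1: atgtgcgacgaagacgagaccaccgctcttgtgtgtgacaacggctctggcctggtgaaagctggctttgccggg
Actc1: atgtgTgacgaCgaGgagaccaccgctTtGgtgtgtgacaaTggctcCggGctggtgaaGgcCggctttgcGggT
Acta2: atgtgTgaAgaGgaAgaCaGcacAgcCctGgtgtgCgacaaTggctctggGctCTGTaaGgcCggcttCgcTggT
Actg2: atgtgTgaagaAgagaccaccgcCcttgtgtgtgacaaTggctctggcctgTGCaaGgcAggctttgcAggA
Actb: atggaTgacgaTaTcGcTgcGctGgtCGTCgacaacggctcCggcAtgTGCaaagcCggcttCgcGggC
Actg1: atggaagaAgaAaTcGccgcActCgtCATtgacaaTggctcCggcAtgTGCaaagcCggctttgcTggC
Within this stretch Actc1 differed from Acta1 at 12 bases, Acta2 at 21, Actg2 at 11, Actb at 20 and Actg1 at 18. These counts leave out missing bases, since the stretch has 72 bases in Actg2 and 69 in Actb and Actg1, against 75 in Acta1. The coding sequences of Actb and Actg1, which are shorter than that of Acta1 (1125 against 1131 bases), were the closest pair, with 88.6% identity over all aligned bases. The most distant pair was Acta2 and Actg1, with 82.0% identity. Acta1 and Actc1 were 86.3% identical, and Acta2 and Actg2 were 84.4% identical.

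Reads of 150 nt can still tell the 6 genes apart. Of all windows of 150 bases in the main transcript of each gene, 0 occurred in the main or other transcripts of another member. At 50 bases, 28 of 1397 windows of Acta1, 48 of 1871 of Actb, 37 of 1903 of Actg1 and 7 of 1986 of Acta2 did, against 0 for Actc1 and Actg2. Pseudogenes are the exception: 43.5% of the 150-base windows of Actg1 were present in the transcripts of Gm12715, Gm16385 or Gm8399, while the other 5 members shared none with any other gene.

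All 6 genes lie on different chromosomes and on the minus strand (GRCm38). Acta1 spans 123891769 to 123894751 of chromosome 8 and Actc1 114047282 to 114053548 of chromosome 2, each with 7 exons in the main transcript. Acta2 spans 34241090 to 34255590 of chromosome 19 and Actg2 83512905 to 83536265 of chromosome 6, each with 9 exons. Actb spans 142903115 to 142906754 of chromosome 5 and Actg1 120345690 to 120348542 of chromosome 11, each with 6 exons.

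The levels of the family ran from the top row of the table to rank 6095, and both groups had the same order. Values are FPKM, which divide a gene's fragments by transcript length in kilobases and by the mapped total, so levels of different genes can be set side by side. Acta1 was the highest actin in each of the 4 libraries, followed by Acta2, Actc1, Actb, Actg1 and Actg2. In both groups, no neighbours in this order had overlapping values. In control cells the mean of Acta1 was 1.70-fold that of Acta2, Acta2 was 2.32-fold Actc1, Actc1 was 2.51-fold Actb, Actb was 1.61-fold Actg1 and Actg1 was 54.8-fold Actg2. In knockdown cells the same steps were 1.53, 2.70, 1.55, 1.95 and 31.7. The smallest gap was that of Acta1 over Acta2 in knockdown cells, where the lower Acta1 value (3151 FPKM) lay above the higher Acta2 value (2670 FPKM).

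**Figure D1:**
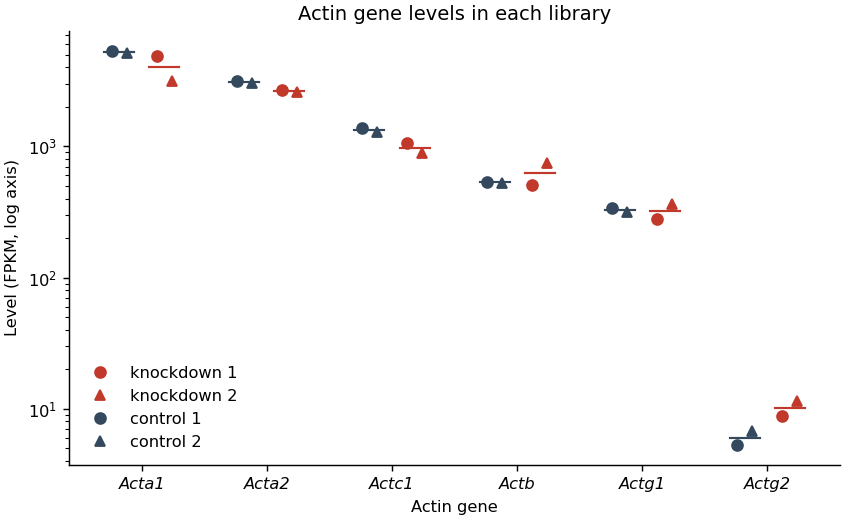
Level of each actin gene in each library, in FPKM on a log axis; circles are replicate 1, triangles replicate 2, and bars the mean of the 2 samples of a group. The order of the 6 genes is the same in knockdown and control, and knockdown replicate 2 has the lowest Acta1 and the highest Actb.

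Acta1, the thin-filament actin of adult fibres, was among the most abundant of all rows. It ranked 1st and 2nd of all rows in control replicates 1 and 2 and 1st and 5th in knockdown replicates 1 and 2. Its levels were 4888 and 3151 FPKM with LncMyoD siRNA and 5326 and 5178 with control siRNA. Neither knockdown library reached the controls, and their differences from the control mean were -6.93% in replicate 1 and -40.00% in replicate 2. The knockdown replicates thus differed from each other 1.55-fold, more than the 1.31-fold between the group means. The log2 fold change, knockdown minus control on log2(FPKM + 1), was -0.42 ± 0.19 (SE, limma), with a 95% interval of -0.89 to 0.05 and an adjusted p of 0.701. It was -0.74 without knockdown replicate 1 (limma adjusted p 0.0153, with knockdown assumed to vary like the controls) and -0.10 without knockdown replicate 2 (0.423). Over 13 alternatives the adjusted p of Acta1 ran from 0.0153 to 0.9995.

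Actc1, the cardiac isoform co-expressed in young muscle fibres, had the lowest p of the family. Its levels were 1056 and 891 FPKM with LncMyoD siRNA and 1367 and 1295 with control siRNA. Knockdown replicates 1 and 2 differed from the control mean by -20.7% and -33.1%. Both knockdown libraries were low and the groups did not overlap. The log2 fold change was -0.46 ± 0.10 (SE, limma), with a 95% interval of -0.70 to -0.21, an unadjusted p of 0.00372 and an adjusted p of 0.523. It ranked 74th of all genes tested by p and did not pass the threshold of 0.05.

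Acta2, the vascular smooth muscle isoform, was the second most abundant actin in these cells. It had 2670 and 2576 FPKM with LncMyoD siRNA and 3165 and 3021 with control siRNA. The differences from the control mean were -13.7% and -16.7%. The knockdown replicates of Acta2 were the closest of any member, 1.04-fold apart, and both lay under both controls. Its log2 fold change of -0.24 had a 95% interval of -0.40 to -0.07 (limma adjusted p 0.607).

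The level of Acta2 stood in contrast with that of the genes that define smooth muscle. Myh11, the smooth muscle myosin heavy chain, had 0 to 0.0337 FPKM in the 4 libraries, Cnn1, smooth muscle calponin, had 0 to 0.621, and Myocd, the smooth muscle cofactor of SRF, had 0 to 0.147. Of the 13 smooth muscle and pericyte markers, 5 passed the abundance filter, and the 13 together summed to 150 and 166 FPKM with LncMyoD siRNA and 201 and 167 with control siRNA, most of it Tagln and Smtn. Both of these are also made outside smooth muscle. Kcnj8, a pericyte channel, was at 0 in all 4. The summed level was lower in both knockdown libraries, but replicate 2 (166 FPKM) was close to control replicate 2 (167 FPKM). Of the 5 tested, 3 lay below and 0 above without overlap (all genes, 16.3% and 22.1%). Tagln overlapped between groups, while Smtn was lower in both knockdown libraries. So were Mcam (0.826 and 0.570 FPKM versus 2.22 and 1.94 in controls) and Cspg4 (1.02 and 1.04 versus 1.53 and 1.42). Pdgfrb, which missed the filter, was higher in both (0.460 and 0.634 versus 0.150 and 0.184). The part of these markers in the Acta2 values was not tested. In whole-culture RNA, fewer cells of a type and less RNA per cell cannot be told apart.

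Actg2, the enteric smooth muscle isoform, was the one member with both knockdown libraries above both controls. It had 8.83 and 11.4 FPKM with LncMyoD siRNA and 5.29 and 6.71 with control siRNA, a ratio of means of 1.68. Knockdown replicate 2 was the highest and control replicate 1 the lowest. On its longest transcript these levels rest on about 431 and 622 reads of 150 nt in knockdown and 276 and 349 in control, against 187000 to 301000 for Acta1. The log2 fold change was 0.66 ± 0.20 (SE, limma), with a 95% interval of 0.17 to 1.15 and an adjusted p of 0.626. The level of Actg2 was 0.331% and 0.441% of that of Acta2 in knockdown and 0.167% and 0.222% in control. None of the 50-base or 150-base windows of Actg2 occurred in another gene.

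The cytoplasmic actins showed no shared shift between groups. Actb, the beta-actin of the cell cortex and a common reference gene, had 511 and 741 FPKM with LncMyoD siRNA and 534 and 527 with control siRNA. The difference from the control mean was -3.72% in knockdown replicate 1 and 39.7% in replicate 2, so the groups overlapped. The log2 fold change of Actb was 0.21 (95% interval -0.20 to 0.63, limma adjusted p 0.816). Without knockdown replicate 2 it was -0.054, and without replicate 1 it was 0.48.

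Actg1, cytoplasmic gamma-actin, had 279 and 361 FPKM with LncMyoD siRNA and 340 and 318 with control siRNA. The controls lay between the 2 knockdown libraries. The log2 fold change was -0.05 (95% interval -0.37 to 0.27, limma adjusted p 0.954), and it was 0.14 without knockdown replicate 1 and -0.23 without knockdown replicate 2. These intervals do not show that Actb and Actg1 were equal in knockdown and control cells.

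Of the 6 members, 0 passed the adjusted threshold, where 0.055% of the 10900 genes tested did (6 genes by limma). At an unadjusted p under 0.05 there were 3 of the 6 members, Actc1, Acta2 and Actg2, and 772 of all 10900 genes. In 3 of the 6, Acta1, Actc1 and Acta2, both knockdown libraries lay below both controls, as in 16.3% of all genes tested. In 1 of the 6, Actg2, both lay above, as in 22.1% of all genes tested. With knockdown replicate 2 left out, knockdown lay below both controls in 5 members, all but Actg2, where 36.8% of all genes did. With knockdown replicate 1 left out, Actb, Actg1 and Actg2 lay above (43.8% of all genes did) and the 3 alpha-actins below (29.9% did), so Actb and Actg1 took opposite sides in the 2 knockdown libraries. The 6 log2 fold changes had a median of -0.14, beside 0.03 over all genes tested.

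**Figure D2:**
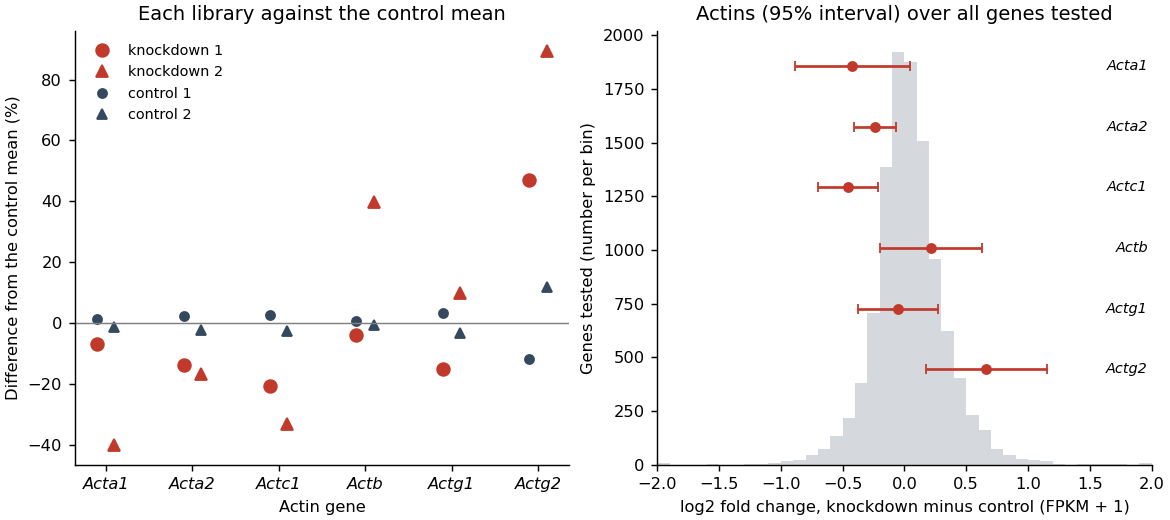
Left, the difference of each library from the control mean in percent, per actin gene (circles replicate 1, triangles replicate 2). Right, log2 fold changes with 95% intervals (limma) over the histogram of all 10900 genes tested, where values beyond -2 or 2 are counted in the end bins and the heights of the 6 points carry no value; knockdown replicate 2 is farther from the controls than replicate 1 for 5 of the 6 genes.

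Summed over the family, actin transcripts were lower in both knockdown libraries. The total was 9413 and 7731 FPKM with LncMyoD siRNA and 10737 and 10347 with control siRNA, a ratio of means of 0.813. The 6 genes together took 2.97% and 2.41% of all FPKM in knockdown and 3.33% and 3.21% in control. The groups did not overlap, and the exact two-sided permutation p was 0.333, the smallest that 2 against 2 samples can give. The lower total came from Acta1, Acta2 and Actc1, while Actg2, at a far lower level, was higher in both knockdown libraries. The 4 muscle isoforms together had 8623 and 6629 FPKM against 9863 and 9501. The 2 cytoplasmic isoforms had 790 and 1102 FPKM against 873 and 845, and here the groups overlapped.

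Some shares of the pool, given below, set both knockdown libraries apart from the controls. Those of Acta1 and Acta2 were close in 3 of the libraries and different in knockdown replicate 2. That library was also the deepest, with 41.1 reads per FPKM and kilobase where the others had 36.7 to 39.1, and had the lowest mitochondrial share (2.74% of all FPKM, where the others had 3.12% to 3.24%), and the part of these in the actin values was not tested. Acta1 made up 51.9% and 40.8% of the family total in knockdown and 49.6% and 50.04% in control. Acta2 made up 28.4% and 33.3% against 29.5% and 29.2%. In both genes knockdown replicate 1 and replicate 2 lay on opposite sides of the controls, so their shares had no common direction.

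Actc1 had the one share that was low in both knockdown libraries, with 11.2% and 11.5% of the pool against 12.7% and 12.5%. The difference of -1.26 percentage points compares with SDs of 0.213 in knockdown and 0.148 in control (n = 2 each). Actb made up 5.43% and 9.59% against 4.97% and 5.09%, and Actg2 0.0938% and 0.147% against 0.0493% and 0.0649%. These shares were higher in both knockdown libraries, and for Actc1, Actb and Actg2 the exact permutation p was 0.333. Actg1 made up 2.97% and 4.67% against 3.16% and 3.08%, and the groups overlapped. Since shares add up to a fixed total, a higher share of 1 isoform lowers those of the others.

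**Figure D3:**
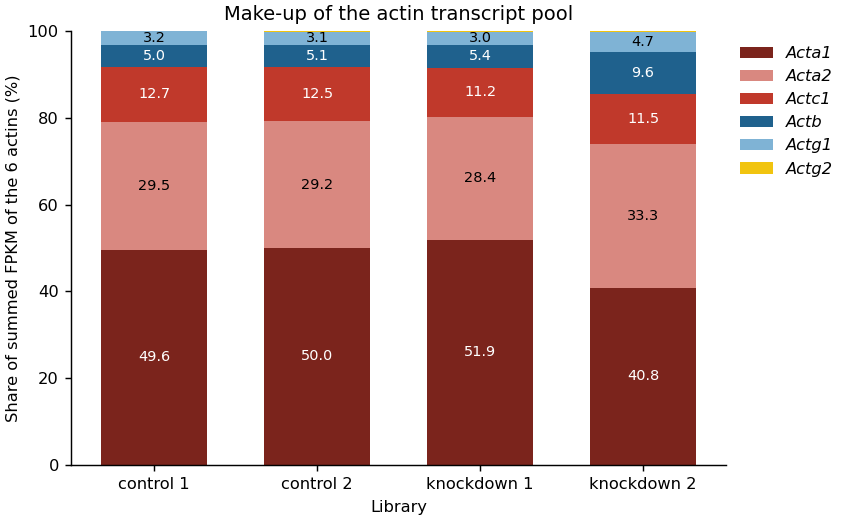
Share of each gene in the summed FPKM of the 6 actins, per library; each bar adds up to the whole pool, shares above 2.5% are printed in the bar, and Actg2 is too small to be seen. Knockdown replicate 2 has an Acta1 share of 40.8%, where the other 3 libraries have 49.6% to 51.9%.

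Ratios between isoforms differed in which libraries stood apart. Acta1 was 4.63 and 3.54 times Actc1 in knockdown and 3.897 and 3.997 times in control, so that the controls lay between the knockdown libraries. Acta2 was 2.53 and 2.89 times Actc1 in knockdown and 2.32 and 2.33 times in control, higher in both knockdown libraries. Actb was 1.83 and 2.05 times Actg1 in knockdown and 1.57 and 1.66 times in control, again higher in both. The muscle isoforms together were 10.9 and 6.01 times the cytoplasmic isoforms in knockdown and 11.3 and 11.2 times in control. For these last 3 ratios the groups did not overlap, and the exact permutation p was 0.333, the smallest that this test allows here.

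The rows of processed pseudogenes, which are reverse-copied and reinserted transcripts, were listed at levels that are sizeable beside Actg1. A search of all annotated transcripts for at least 90% identity over at least 200 bases of an actin coding sequence found 13 further rows, of which 12 are annotated as pseudogenes and 1, Lrrc58, as protein coding. The closest to Actg1 was Gm12715 (chromosome 4, 103563402 to 103564529, plus strand), with 99.6% identity over 1125 bases. Gm12715 was listed at 66.2 and 90.2 FPKM with LncMyoD siRNA and 78.5 and 81.9 with control siRNA, which was 23.7% and 25.0% of the Actg1 value in knockdown and 23.1% and 25.7% in control. Gm8399 (chromosome 13, 81064684 to 81065800, plus strand), 98.6% identical, was listed at 16.6 and 21.9 FPKM with LncMyoD siRNA and 18.4 and 19.1 with control siRNA.

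The 11 pseudogene rows closest to Actg1 summed to 30.9% and 32.1% of the Actg1 value in knockdown and 29.7% and 32.7% in control. Both Actg1 and this sum were lowest in knockdown replicate 1 and highest in replicate 2, while of the controls replicate 1 had the higher Actg1 and the lower sum (100.8 against 104.1 FPKM). With them added, the sum of Actg1 and these rows was 366 and 477 FPKM with LncMyoD siRNA and 440.3 and 422 with control siRNA. The controls again lay between the knockdown libraries. Each row is divided by its own length, and Gm12715 and Gm8399 are shorter than Actg1, so this sum is not a level of gamma-actin. The ratio of Actb to this sum was 1.40 and 1.55 in knockdown and 1.21 and 1.25 in control. Whether the reads came from the pseudogenes or from Actg1 cannot be told apart from these values. Actb had 1 such pseudogene row, Gm15725, with 0.371 to 0.601 FPKM, and the 4 muscle isoforms had 0.

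**Figure D4:**
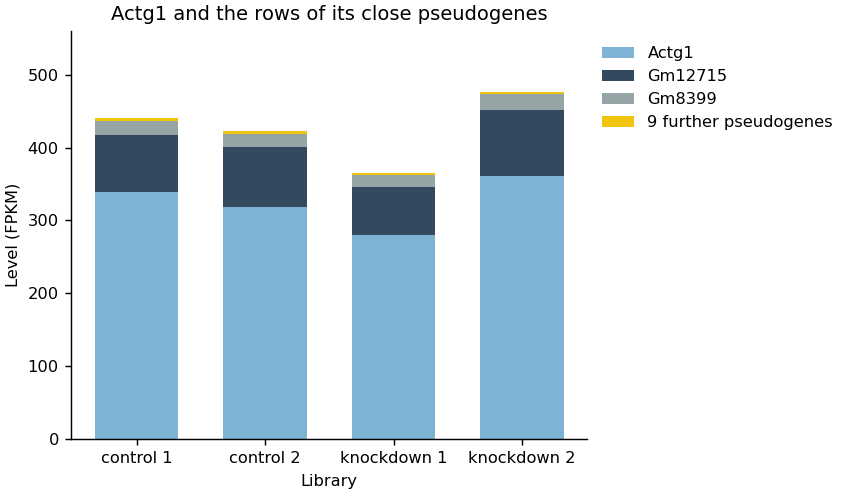
Level of Actg1 and, stacked on it, of the pseudogene rows that match it most closely, in FPKM per library. Gm12715 adds 66.2 to 90.2 FPKM, about the same percentage of Actg1 in each library.

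The promoters are shown for the CArG box of SRF, known from actin genes. RefSeq promoter windows (GRCm38.p6) matched 4 of the 6 members, and the other names are Actb and Actg2. The annotated start used here is that of RefSeq, which differs from the start of the GENCODE M21 gene spans given above. By those spans the Actc1 window lies inside the gene, and the windows of Acta2 and Actg1 lie partly inside. The 250 bases before the annotated start are given 5′ to 3′ on the gene's strand, all minus, with capitals for each CArG box (CC, then 6 bases that are A or T, then GG) and for each stretch that departs from it by a single G or C among the inner 6.
Acta1, chr8:123894776-123895025: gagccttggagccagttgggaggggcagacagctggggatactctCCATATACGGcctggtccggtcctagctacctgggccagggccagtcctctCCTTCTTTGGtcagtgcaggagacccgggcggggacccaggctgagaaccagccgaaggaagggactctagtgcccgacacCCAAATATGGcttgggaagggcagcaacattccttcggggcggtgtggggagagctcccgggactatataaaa
Actc1, chr2:114052876-114053125: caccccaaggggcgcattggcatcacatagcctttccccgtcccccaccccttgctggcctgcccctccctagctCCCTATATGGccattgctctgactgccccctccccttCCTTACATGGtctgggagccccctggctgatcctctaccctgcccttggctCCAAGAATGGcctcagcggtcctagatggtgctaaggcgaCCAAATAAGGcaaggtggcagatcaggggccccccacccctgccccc
Acta2, chr19:34255374-34255623: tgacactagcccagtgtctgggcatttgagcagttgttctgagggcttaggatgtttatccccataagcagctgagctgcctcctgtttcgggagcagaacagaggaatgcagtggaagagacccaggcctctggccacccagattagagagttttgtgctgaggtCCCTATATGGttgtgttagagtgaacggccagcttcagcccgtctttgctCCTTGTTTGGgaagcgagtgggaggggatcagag
Actg1, chr11:120348496-120348745: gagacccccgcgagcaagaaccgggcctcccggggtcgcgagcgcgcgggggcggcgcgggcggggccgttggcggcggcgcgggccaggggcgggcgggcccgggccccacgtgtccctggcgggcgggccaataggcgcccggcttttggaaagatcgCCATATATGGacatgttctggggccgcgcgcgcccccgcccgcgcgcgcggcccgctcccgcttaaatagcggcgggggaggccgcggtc
An exact CArG box stood 73 bases before the start of Acta1, 47 before that of Actc1 and 90 before that of Actg1. In the Acta2 window there was no exact match, and stretches with a single departure began 84 and 34 bases before the start. Acta1 had 2 such stretches besides its exact box, at 205 and 154 bases, and Actc1 had 3, at 175, 138 and 87. Of 32851 promoter windows in the table, 1.47% held an exact CArG box and 8.59% held at least 1 exact or single-departure stretch. The reverse complement of a CArG box is again one, so both strands were covered.

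The E-box, the CANNTG site of MyoD and other bHLH factors, was also searched on both strands. It occurred at 2 places in the Acta1 window, at 3 in that of Acta2, at 1 in that of Actg1 and at none in that of Actc1, and 66.2% of all windows held it. The form CAGCTG, which is counted within CANNTG, stood 221 bases before the start of Acta1 and 182 before that of Acta2, and 4271 of the 32851 windows held it. No E-box shared bases with a CArG box in these windows.

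SRF and its partners were measured at low levels. Srf had 2.43 and 2.37 FPKM with LncMyoD siRNA and 2.47 and 4.07 with control siRNA, which gave a log2 fold change of -0.30 (limma adjusted p 0.823). Control replicate 2 alone stood high. In the list of SRF, its actin-regulated cofactors and the ternary complex factors, 7 of 11 rows were tested, 0 passed, and the median was 0.21, or -0.11 over the 11 rows without the filter on low values. Elk3, a ternary complex factor that binds beside SRF, had 4.13 and 4.83 FPKM with LncMyoD siRNA and 1.76 and 2.09 with control siRNA, which gave a log2 fold change of 0.91 (limma adjusted p 0.523.) Both knockdown values of Elk3 lay above both controls.

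Genes that assemble actin were described from lists of known members, none of which passed the adjusted threshold in any gene. The Arp2/3 complex nucleates branched filaments and is switched on by WASP and WAVE proteins. Of its 18 tested members 13 had a positive and 5 a negative log2 fold change, with a median of 0.13, and in 9 both knockdown libraries lay above both controls while in 0 both lay below (22.1% and 16.3% of all genes tested). That median was between 0.09 and 0.15 over the 13 alternatives. Actr2, a subunit of the actin-like pair, had 26.8 and 22.0 FPKM with LncMyoD siRNA and 15.9 and 19.8 with control siRNA, which gave a log2 fold change of 0.43 (limma adjusted p 0.692.) Arpc1b had 68.8 and 97.0 FPKM against 61.0 and 61.7 (0.41, limma adjusted p 0.698). Knockdown replicate 2 was the highest for Arpc1b, and knockdown replicate 1 for Actr2.

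Formins and other nucleators extend straight filaments, and leiomodins do so in sarcomeres. Of 10 tested members, 2 lay above and 3 below without overlap, beside 22.1% and 16.3% of all genes tested. Diaph1, a formin, had 2.70 and 2.79 FPKM with LncMyoD siRNA and 1.35 and 1.22 with control siRNA, which gave a log2 fold change of 0.71 (limma adjusted p 0.607.) Lmod3, the leiomodin of skeletal muscle, had 74.8 and 57.9 FPKM versus 97.1 and 88.6 in controls, which gave a log2 fold change of -0.49 (limma adjusted p 0.619.) In Lmod3, as in Acta1 and Actc1, knockdown replicate 2 was the lowest library. The list median was 0.20, and it was -0.33 with the filter at a mean of 5 FPKM.

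Monomer binding and turnover genes decide how much actin is free. Of 20 tested members, 8 lay above and 4 below without overlap, where 22.1% and 16.3% of all genes did, and the median was 0.11. Gmfb, a debranching factor, had 37.4 and 27.0 FPKM with LncMyoD siRNA and 18.5 and 20.5 with control siRNA (log2 fold change 0.68, limma adjusted p 0.607). Cap1, which recycles actin from cofilin, had 5.79 and 5.15 FPKM against 2.90 and 3.09 (0.69, limma adjusted p 0.607). Tmsb10, a thymosin that sequesters monomers, was the most abundant of the list, with 1921 and 1759 FPKM against 2048 and 1955, and both knockdown values were low.

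Capping and severing genes had 3 of 10 tested members above and 0 below without overlap (all genes, 22.1% and 16.3%), with a median of 0.11. Capg, a barbed-end capper, had 77.5 and 89.9 FPKM with LncMyoD siRNA and 62.9 and 59.1 with control siRNA (log2 fold change 0.45, limma adjusted p 0.5995). Crosslinkers and anchors had 6 of 17 above and 4 below by the same measure (all genes, 22.1% and 16.3%), with a median of 0.01 that was -0.01 with scaling by median ratios. Pls3, a plastin that bundles filaments, had 106 and 103 FPKM with LncMyoD siRNA and 83.7 and 82.7 with control siRNA (0.33, limma adjusted p 0.607). Flna, filamin A, had 44.1 and 54.0 FPKM against 37.9 and 35.8 (0.39, limma adjusted p 0.649).

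Newly made actin is folded by the CCT chaperonin with help from prefoldin, and is then modified by enzymes such as the histidine methyltransferase Setd3. In this list 13 of 16 tested members had a negative log2 fold change, as had 45.2% of all genes tested, with a median of -0.07. Without overlap, 4 lay below and 1 above, beside 16.3% and 22.1% of all genes tested. The median was between -0.10 and -0.03 over the 13 alternatives. Cct7 had 150 and 147 FPKM with LncMyoD siRNA and 183 and 177 with control siRNA (-0.27, limma adjusted p 0.626), and Cct5 had 315 and 320 against 348 and 359 (-0.15, limma adjusted p 0.717). Setd3 had 11.6 and 12.1 FPKM versus 10.8 and 9.27 in controls, and its log2 fold change of 0.22 had the opposite sign (limma adjusted p 0.791). Among actin-like and actin-related proteins 8 of 18 rows were tested, with 4 negative and 4 positive log2 fold changes, and 6 rows were at 0 in every library.

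**Figure D5:**
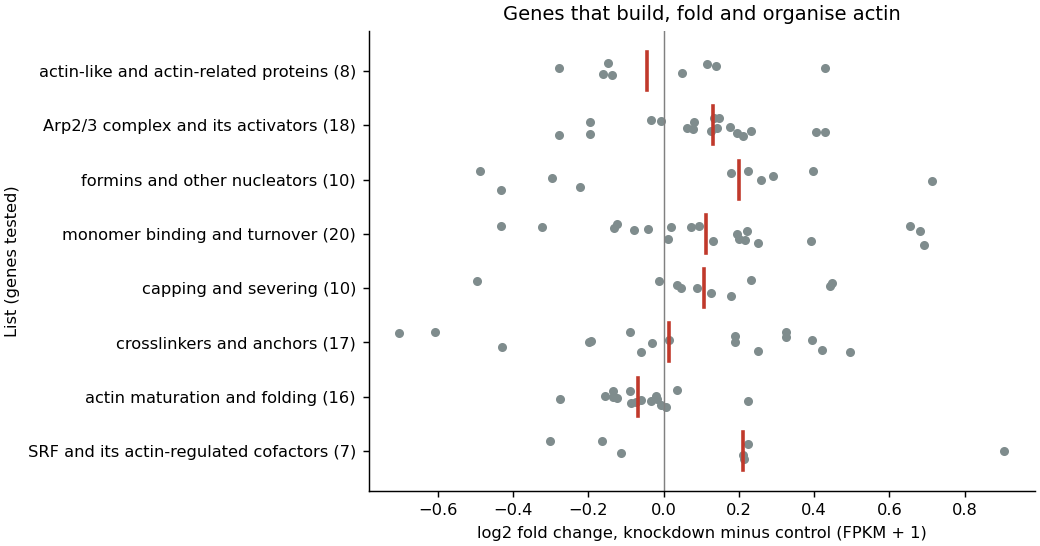
Log2 fold change of each tested gene (grey points) and the median (red bar) of each list of actin-handling genes, with the number tested in parentheses; the vertical scatter within a list has no meaning. Medians range from -0.07 for maturation and folding to 0.21 for SRF and its cofactors, and 0 genes of these lists passed the adjusted threshold.

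Tpm4, a tropomyosin that coats actin filaments in non-muscle cells and early muscle, was the one gene tied to actin filaments among the 6 that passed. It had 460 and 441 FPKM with LncMyoD siRNA and 862 and 822 with control siRNA (limma adjusted p 0.0350), and its values did not overlap between groups. For Tpm4 the log2 fold change was -0.93 to -0.84 over the 13 alternatives. It lost the call without the filter on low values (limma adjusted p 0.727), in limma without the trend (0.596), with the replicate block (0.135) and without control replicate 1 (0.3402) or 2 (0.358).

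Of 8 satellite cell and myoblast markers 7 were tested, with 3 below and 1 above without overlap (all genes, 16.3% and 22.1%). Myog had 3406 and 2793 FPKM with LncMyoD siRNA and 4196 and 3931 with control siRNA, the same order of libraries as Acta1, Actc1 and Acta2. Myod1 had 583 and 667 FPKM against 698 and 691, with knockdown replicate 1 the lowest. Myf5 was also lower (6.11 and 7.31 FPKM against 8.20 and 7.63). Vcam1 was the 1 above, with 46.3 and 53.7 FPKM against 42.4 and 44.0. Itga7 overlapped, with 51.3 and 82.5 FPKM against 64.5 and 59.7. Cdh15, a cadherin of myoblasts, ran from 111 to 148 FPKM and Des, muscle desmin, from 221 to 287. The macrophage markers Ptprc and Adgre1 and the endothelial marker Kdr were listed at 0 in all 4 libraries. Of the other markers of these lists, Cd14 ran from 1.05 to 2.87 FPKM, Eng from 4.16 to 6.39 and Tek from 0.801 to 2.45, with overlapping groups. The fibroblast markers Pdgfra and Dcn stayed at or below 0.160 FPKM. The 8 fibroblast markers summed to 77.4 and 67.1 FPKM with LncMyoD siRNA and 80.0 and 88.9 with control siRNA, largely Islr and Col3a1, and their part in the actin values was not tested. Of the 4 tested, 2 lay below and 2 above without overlap (all genes, 16.3% and 22.1%). Islr was lower in both knockdown libraries (42.1 and 30.6 FPKM versus 51.2 and 58.5 in controls), while Col3a1 (27.4 and 29.4 versus 23.0 and 24.4) and Cd34 (4.52 and 4.62 versus 1.36 and 1.17, limma adjusted p 0.265) were higher.

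Likeness of pattern was measured as the Euclidean distance between the 4 centred log2 values of an actin and of each of 1258 genes whose mean reached 50 FPKM. With 4 libraries this is a description of these samples. The closest genes to Acta1 were Herpud1 (distance 0.0157), Mospd1 (0.0935) and C1qtnf3 (0.104). Herpud1 had 270 and 174 FPKM with LncMyoD siRNA and 291 and 283 with control siRNA, low in knockdown replicate 2 like Acta1. The closest to Actc1 were Mymk, which codes for the fusion protein myomaker (0.0232), Myog (0.0672) and Dpep1 (0.0729). Mymk had 307 and 257 FPKM with LncMyoD siRNA and 394 and 382 with control siRNA.

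For Acta2 the closest were Eif3k (0.0338), Gm9844 (0.0373) and Hax1 (0.0427). For Actb they were S100a11 (0.0506), B2m (0.0822) and Tubb5 (0.1), each highest in knockdown replicate 2. S100a11 had 273 and 388 FPKM with LncMyoD siRNA and 292 and 287 with control siRNA. For Actg1 they were Gm12070 (0.0213), Rpl6l (0.0369) and Atp5k (0.0477). No candidate came as near to Actg2, for which the closest were Rpph1 (0.22), Cavin3 (0.255) and Hmgb3 (0.262). Since candidates had a mean of at least 50 FPKM, genes at the low level of Actg2 were not among them.

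Within the family, Actc1 and Acta2 were the closest pair (distance 0.258), followed by Acta1 and Actc1 (0.278) and by Actb and Actg1 (0.293). Acta1 and Actg2 were the farthest apart (1.3). Actc1 and Acta2 were thus slightly closer to each other in these libraries than Actb and Actg1 were. The coding sequences of Actc1 and Acta2 are less alike (82.6% identity) than those of Actb and Actg1. Genes outside the family came nearer to each of these 4, such as Mymk to Actc1 (0.0232), Eif3k to Acta2 (0.0338), S100a11 to Actb (0.0506) and Gm12070 to Actg1 (0.0213).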

How the data were processed

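Polyadenylated RNA of 4 samples was measured. Full-length cDNA was amplified by SMART-Seq v4 and sequenced as paired reads of 150 nt, per the labels' protocols. Tools and build come from the submitters' processing notes, with no roles: HISAT2 2.1.0, StringTie 1.3.3, Trimmomatic 0.36, SAMtools 1.3, bcl2fastq 2.19 and mm10. No source used here gives the annotation release or how reads matching several places were shared out, which bears on Actg1. The authors deposited 1 FPKM value per gene and sample, a unit read from the values, whose columns sum to 317223 to 322496. The steps in low values of genes with 1 exon and 1 transcript (86.9% to 88.0% whole within a tolerance of 0.1, where chance gives 20.0%) put 36.7 to 41.1 reads of 150 nt behind each FPKM and kilobase. Such reads are not independent molecules, and whole counts were not recovered, so no count model was fitted.

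The test was limma 3.58.1 (R 4.3.3), with its trend option, for genes averaging 1 FPKM or more, on log2(FPKM + 1), which understates changes of low genes, with 2 residual and 4.09 prior degrees of freedom, two-sided, with Benjamini-Hochberg adjustment over all 10900 genes and a threshold of 0.05. The fit was tested on simulated data with planted changes larger than those of the 6 actins, so that test does not bear on changes of their size. Shares were taken per library. Coding sequences were aligned with biopython 1.88 and transcripts searched with blastn 2.17.0 in GENCODE M21 (GRCm38, which is mm10). Figures were drawn with matplotlib 3.10.9. The members, lists and tests were chosen with earlier results of these data known. Named genes were the 6 members, in each list the 2 tested genes with the lowest p and the most abundant one (not all are printed), Tpm4, Myod1, Myog and Srf, and the 3 nearest genes in pattern per member. Setd3 and the pseudogene rows were named after their values were seen.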

Additional observations from a re-analysis of the deposited data

How the results depend on the processing

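Each log2 fold change was recomputed under 13 alternatives (pseudocount, filter, scaling, quantile normalization, limma without the trend, a replicate block, and each library left out). Actc1, Acta2 and Actg2 kept their direction and stayed above the adjusted threshold in all 13 (lowest limma adjusted p 0.0618, for Actc1), in ranges of -0.58 to -0.33, -0.27 to -0.20 and 0.45 to 0.83. With 1 library left out, the lone sample is assumed to vary like the other group. Acta1 then ranged from -0.74 to -0.10 and passed without knockdown replicate 1 (-0.74, limma adjusted p 0.0153). Actb ranged from -0.054 to 0.48, with -0.054 without knockdown replicate 2, and Actg1 from -0.23 to 0.14, with 0.14 without knockdown replicate 1. Quantile normalization moved Acta1 to -0.23.

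The 6 genes called by limma became 0 without the filter on low values (1508 at an unadjusted p under 0.05) and 5 to 15 with 1 library left out, the 15 being without knockdown replicate 1. In the main fit the numbers on the titles were not used to pair the samples. Same-numbered deviations had a correlation of -0.02 across genes, which with 2 samples per group cannot show whether the samples were paired. With the replicate block 3 genes passed. Leaving out 1 library, the family ratio was 0.733 to 0.893, and the share difference in percentage points was -9.07 to 2.103 for Acta1, -1.41 to -1.11 for Actc1, -0.97 to 3.98 for Acta2, 0.393 to 4.55 for Actb and -0.152 to 1.55 for Actg1. Counts of actins without overlap between groups, which with the list medians and Tpm4 were alternatives chosen after seeing the data, were 3 to 5 below and 1 to 3 above with 1 library left out, where 27.6% to 36.8% and 35.1% to 43.8% of all genes were. Counting error limits Actg2 most, with 276 to 622 reads per library.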
